A study of Rattus norvegicus with 18 samples.

Results

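Aqp7, Aqp1, Aqp4, Gk and Gpd1 are 3 membrane channels and 2 enzymes that handle water and glycerol in skeletal muscle. They are 5 of the 16856 genes that have a probe set of their own in the array annotation, and all 5 were among the 12642 genes bright enough to test. Aqp7 was chosen by its measured levels, for its large difference between the animals' own diets, and the other 4 were taken as the muscle aquaporins and enzymes of glycerol metabolism. The own-diet values of Aqp7 are therefore given below as a description, with no test. Each of the 5 genes is read by 1 probe set: 10876060 for Aqp7, 10855701 for Aqp1, 10803305 for Aqp4, 10938219 for Gk and 10899187 for Gpd1.

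The animals were adult female Sprague-Dawley rats of the F2 generation, an outbred strain, and the tissue was the extensor digitorum longus (EDL), a fast muscle of the lower hindlimb. Group names give the founding grandfather's (F0) diet and then the female's own. The high-fat/high-fat group held 4 animals, the chow/high-fat group 5, the high-fat/chow group 4 and the chow/chow group 5, with 1 Affymetrix array per animal. The females' own diet lasted 12 weeks, and the high-fat diet drew 42/45% of its energy from fat. No agent or gene alteration is listed for any group, and the labels give neither their age in weeks nor the number of grandfathers behind each lineage. Comparisons of the grandfather's diet count each granddaughter as independent.

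Aquaporins are channels of the cell membrane. Aqp1 and Aqp4 pass water, Aqp1 being typical of capillary endothelium and red blood cells and Aqp4 of the surface of fast muscle fibres, where the dystrophin complex holds it. Aqp7 also passes glycerol and is best known for letting glycerol out of fat cells, though muscle carries it too. Glycerol reaches glycerol 3-phosphate, the backbone of triglycerides and phospholipids, through glycerol kinase (Gk), while glycerol-3-phosphate dehydrogenase (Gpd1) makes the same molecule from a glycolytic intermediate.

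Levels are log2 of the deposited intensity plus 16 after quantile normalization, and differences are log2 differences of group means. The median deposited intensity of an array lay between 55.02 and 73.97, and precision is limited by how many arrays there are. Muscle identity genes stood at a mean log2 level of 12.83 to 12.96 on every array. The slow-fibre marker list varied far more: its mean log2 level was 10.09, 10.36, 10.11 and 8.52 in high-fat/high-fat animals, 10.66, 9.0, 10.22, 9.89 and 9.70 in chow/high-fat animals, 9.14, 10.27, 8.58 and 9.15 in high-fat/chow animals, and 10.59, 9.90, 10.53, 9.71 and 10.02 in chow/chow animals. In whole muscle, fewer cells of a type and less RNA per cell cannot be told apart.

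Aqp7 was higher in the muscle of females that ate the high-fat diet themselves, in either lineage. Its log2 level was 7.94, 8.22, 7.68 and 6.53 in high-fat/high-fat animals and 5.66, 6.75, 6.08 and 6.25 in high-fat/chow animals. It was 8.85, 7.44, 7.42, 8.07 and 7.47 in chow/high-fat animals, against 7.21, 6.58, 6.97, 5.92 and 6.49 in chow/chow animals. All 5 chow/high-fat animals lay above all chow/chow animals, while in the high-fat lineage the groups overlapped through the high-fat/high-fat animal at 6.53, which lay below the highest high-fat/chow animal. Groups that did not overlap, with the high-fat side above, occurred for 0.419% of all genes in the chow lineage.

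**Figure D1:**
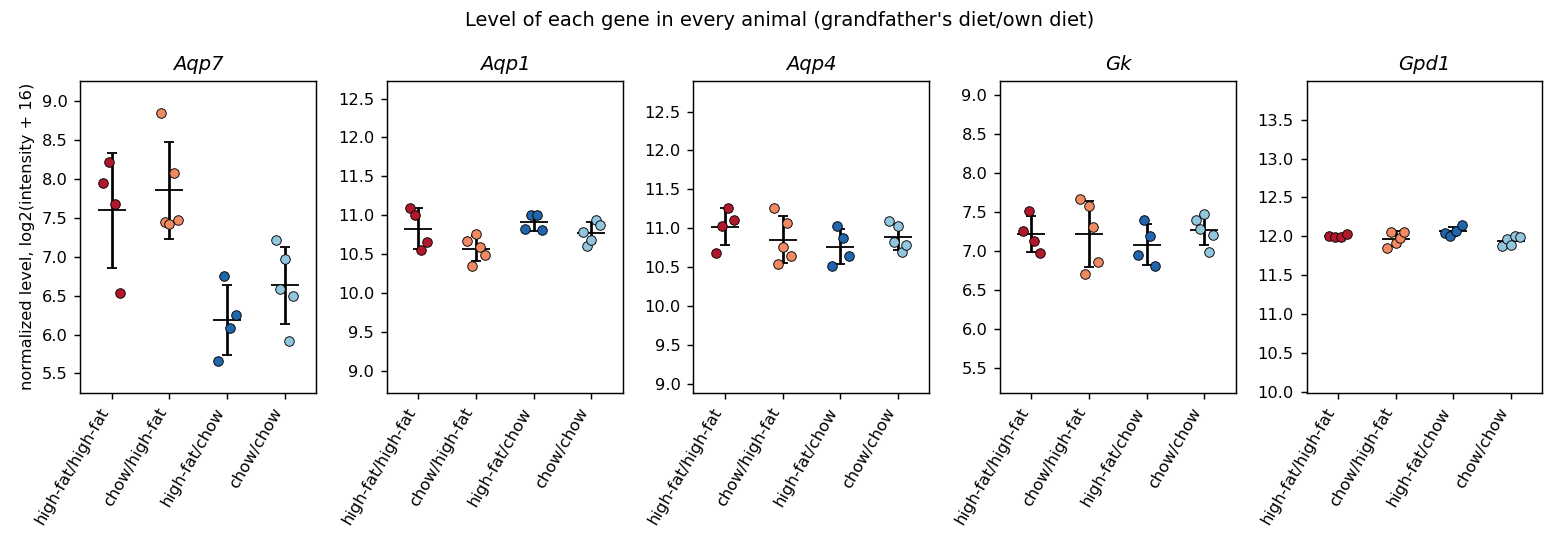
Normalized log2 level of each gene in each of the 18 animals, in 4 groups named by the grandfather's and then the female's own diet; every panel spans the same number of log2 units, horizontal bars are group means and error bars are SD. Of the Aqp7 points on the own high-fat diet 8 of 9 sit between 7.42 and 8.85 and the other at 6.53, those on own chow sit between 5.66 and 7.21, while those of Gpd1 stay within 0.29 log2 of each other.

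Averaged over lineages, Aqp7 was 2.48-fold higher on the own high-fat diet (log2 difference 1.31, SE 0.24, 95% confidence interval 0.81 to 1.81). Because Aqp7 was picked for a large own-diet difference, this size may be overstated and the interval is not a test. The mean of the chow-fed animals was exceeded by 9 of 9 high-fat-fed animals, and the highest chow-fed animal by 8 of 9. Within the high-fat lineage the difference was 1.41 (SE 0.36, 2.66-fold), and within the chow lineage it was 1.22 (SE 0.32, 2.32-fold). The deposited intensity of Aqp7 averaged 214 in high-fat/high-fat and 215 in chow/high-fat muscles, against 58.6 in high-fat/chow and 89.3 in chow/chow muscles. The offset bears on the size, which was 1.5 with an offset of 1 and 0.96 with an offset of 64.

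The grandfather's diet gave Aqp7 values that did not pass any test. Averaged over own diets, the difference was -0.36 (SE 0.24, 95% confidence interval -0.86 to 0.15, limma adjusted p = 0.506). It was -0.26 (SE 0.34, adjusted p = 0.786) between high-fat/high-fat and chow/high-fat animals and -0.45 (SE 0.34, adjusted p = 0.735) between high-fat/chow and chow/chow animals. Without the high-fat/high-fat animal at 6.53 the difference at own high-fat diet was 0.094. The interaction, which asks whether the own-diet difference depends on the lineage, was 0.19 (SE 0.48, 95% confidence interval -0.81 to 1.19, adjusted p = 0.958), and its interval spans differences in either direction. Ordered by mean, the groups ran from chow/high-fat (7.85 ± 0.62) through high-fat/high-fat (7.59 ± 0.74) and chow/chow (6.63 ± 0.50) to high-fat/chow (6.18 ± 0.45; SD, n = 4 or 5), and the ranges of all neighbours in that order overlapped.

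The sample titles carry animal numbers, and 8 pairs of animals of the same lineage and unlike own diet had numbers 3 or fewer apart. Aqp7 was higher in the high-fat-fed animal of 8 of 8 such pairs, by 0.45 to 2.56. These pairs reuse the own-diet values that chose Aqp7, so its count is a description and cannot be set against those of the other genes. Aqp4 was higher in 5 of 8 pairs, Gk in 4, Gpd1 in 3 and Aqp1 in 2. The titles also end in a code whose number is 5, 7 or 9 and which the labels do not explain. Among animals with the number 5, the Aqp7 difference was 1.27 in the high-fat lineage (1 high-fat-fed against 2 chow-fed animals) and 1.89 in the chow lineage (2 against 3). With the number 7 it was 0.87 (1 against 1) and 0.48 (3 against 1) in the same order. With the number 9 only the high-fat lineage had animals on each diet, and there it was 1.83 (2 against 1). The differences by code number reuse the values that chose Aqp7 as well and are a description.

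**Figure D2:**
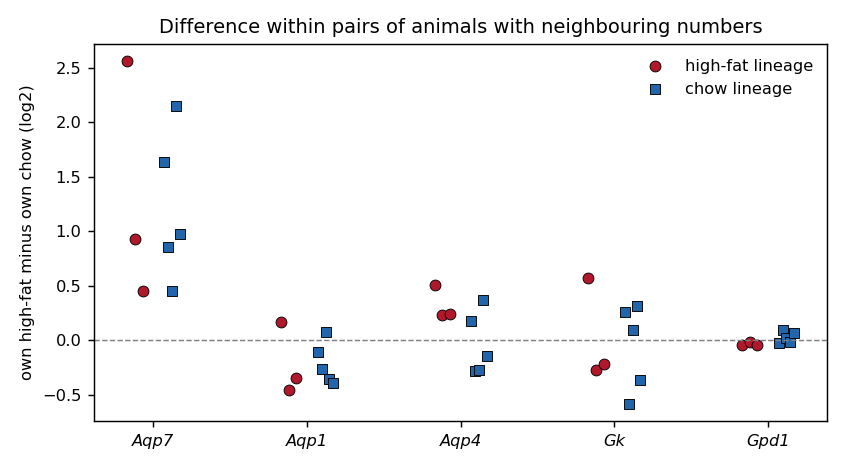
Difference in log2 level, own high-fat minus own chow, within 8 pairs of animals with neighbouring numbers, for each gene; circles are pairs of the high-fat lineage and squares pairs of the chow lineage, and the dashed line marks 0. All 8 Aqp7 pairs, which reuse the own-diet values that chose the gene, lie above 0, while the other genes have pairs on either side.

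Fat cells between muscle fibres also express Aqp7. Of the 12 fat-cell markers listed, 8 were bright enough to test. Averaged over lineages, 6 of the 8 were higher on the own high-fat diet, beside 48.3% of all genes. Their median difference was 0.035, and 0 passed, adjusted or unadjusted. In the chow lineage 6 were higher (median 0.11), with 1 at an unadjusted p under 0.05, beside 4.8% of all genes. In the high-fat lineage 3 were higher (median -0.092), with 0 at an unadjusted p under 0.05. Fabp4, the brightest of the 8, differed by 0.25 (SE 0.14) in the chow lineage and -0.20 (SE 0.15) in the high-fat lineage. The summed level of the markers was 616 to 786 in high-fat/high-fat, 765 to 1030 in chow/high-fat, 721 to 780 in high-fat/chow and 672 to 908 in chow/chow muscles, on the scale of normalized intensity. Of the defining markers none was at 0: Adipoq, the fat-cell hormone adiponectin, had a median deposited intensity of 62.2 in high-fat/high-fat (43.69 to 79.41) and 67.1 in high-fat/chow muscles (45.02 to 81.41), and of 65.0 in chow/high-fat (32.22 to 163.82) and 70.6 in chow/chow muscles (34.22 to 95.56). The 4 ranges overlap. Lep, the hormone leptin, was below the brightness limit. With the fat-cell marker level of each array as a covariate, the own-diet difference of Aqp7 was 1.28 (SE 0.25). With the endothelial marker level it was 1.39 (SE 0.23). Either fit reuses the values that chose Aqp7, and the fat-cell level averaged all 12 markers, those below the brightness limit included. The part of fat cells in the Aqp7 level was not tested.

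Aqp1 had lower means on the own high-fat diet and was the member with the smallest p for the grandfather's diet, without passing. Its log2 level was 11.10, 11.0, 10.55 and 10.66 in high-fat/high-fat animals and 10.67, 10.35, 10.76, 10.60 and 10.49 in chow/high-fat animals. It was 10.83, 11.0, 11.01 and 10.81 in high-fat/chow animals, against 10.78, 10.61, 10.68, 10.94 and 10.88 in chow/chow animals. The 2 highest high-fat/high-fat animals lay above every chow/high-fat animal and the other 2 lay among them, so that the groups overlapped at either own diet.

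The grandpaternal difference of Aqp1 averaged over own diets was 0.20 (SE 0.077, 95% confidence interval 0.03 to 0.36, unadjusted p = 0.0202, limma adjusted p = 0.244), with 6 of 8 animals of the high-fat lineage above the mean of the chow lineage. An unadjusted p under 0.05 was reached by 14.6% of all genes in that comparison, and by 13.3% between the high-fat-fed groups. Between high-fat/high-fat and chow/high-fat animals it was 0.26 (SE 0.11, adjusted p = 0.312). The same difference was 0.45 (adjusted p = 0.0392) on the table as deposited, where the median of all genes was itself shifted by 0.18 and 1689 genes passed. The own-diet difference was -0.15 (SE 0.077, adjusted p = 0.793).

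Of 12 endothelial markers measured, 10 were higher in the grandpaternal high-fat lineage averaged over own diets, by a median of 0.062, and 0 passed, with 1 at an unadjusted p under 0.05, beside 14.6% of all genes. Their summed level ran from 2910 to 3180 in high-fat/high-fat, 2540 to 3030 in chow/high-fat, 2810 to 3220 in high-fat/chow and 2760 to 3100 in chow/chow muscles. Of 5 red-cell markers, 4 were higher and 0 passed, adjusted or unadjusted, and the summed level ran from 785 to 3430, 729 to 3940, 960 to 1920 and 953 to 1740 in the same 4 groups. Within groups, the Aqp1 level followed the red-cell marker level with a Pearson r of 0.669 over 18 arrays. It was positive in 2 of 4 groups, with a lowest group r of -0.272 and a highest of 0.953. With the endothelial marker level as a covariate, the averaged grandpaternal difference of Aqp1 was 0.13 (SE 0.086, adjusted p = 0.588) and that between high-fat/high-fat and chow/high-fat animals 0.18 (SE 0.12, adjusted p = 0.683). The part of red cells in the Aqp1 level was not tested.

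Aqp4, the water channel of fast fibres, had a log2 level of 10.69, 11.03, 11.26 and 11.11 in high-fat/high-fat animals and 10.52, 11.03, 10.87 and 10.64 in high-fat/chow animals. It was 11.26, 10.54, 10.76, 11.07 and 10.65 in chow/high-fat animals, against 11.09, 10.82, 11.03, 10.70 and 10.79 in chow/chow animals. The groups overlapped throughout. The own-diet difference was 0.11 averaged over lineages (SE 0.10, 95% confidence interval -0.10 to 0.33, adjusted p = 0.889), 0.26 in the high-fat lineage (SE 0.15, adjusted p = 0.655) and -0.03 in the chow lineage (SE 0.14). The interaction was 0.29 (SE 0.20, adjusted p = 0.799), and the averaged grandpaternal difference was 0.02 (SE 0.10, adjusted p = 0.958).

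Gk, which phosphorylates glycerol, averaged 7.21 ± 0.23 in high-fat/high-fat animals (SD, n = 4) and 7.08 ± 0.26 in high-fat/chow animals (SD, n = 4). It averaged 7.22 ± 0.43 in chow/high-fat animals (SD, n = 5), against 7.27 ± 0.19 in chow/chow animals (SD, n = 5). The chow/high-fat animals alone spanned 6.70 to 7.66, which took in the mean of every other group. The own-diet difference was 0.04 (SE 0.12, 95% confidence interval -0.22 to 0.30, adjusted p = 0.980) and the averaged grandpaternal difference -0.10 (SE 0.12, adjusted p = 0.760).

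Gpd1 was the steadiest of the 5 genes. Its level was 12.00, 11.99, 11.99 and 12.03 in high-fat/high-fat animals and 11.85, 12.06, 11.91, 11.98 and 12.06 in chow/high-fat animals. It was 12.04, 12.01, 12.07 and 12.14 in high-fat/chow animals, against 11.88, 11.97, 11.89, 12.00 and 11.99 in chow/chow animals. All 4 high-fat/chow animals lay above all chow/chow animals, a separation in that direction that 1.53% of all genes had.

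That grandpaternal difference of Gpd1 at own chow was 0.12 (SE 0.058, limma adjusted p = 0.587), and it was -0.0052 on the table as deposited. Averaged over own diets it was 0.07 (SE 0.041, adjusted p = 0.412), and -0.02 with arrays centred on their medians. The own-diet difference was -0.02 (SE 0.041, 95% confidence interval -0.10 to 0.07, adjusted p = 0.975). The residual SD of Gpd1 was 0.0641 log2, and 1.68% of all genes had a smaller one, while that of Aqp7 was 0.585, with 99.6% of genes below it. The median over all genes was 0.136.

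**Figure D3:**
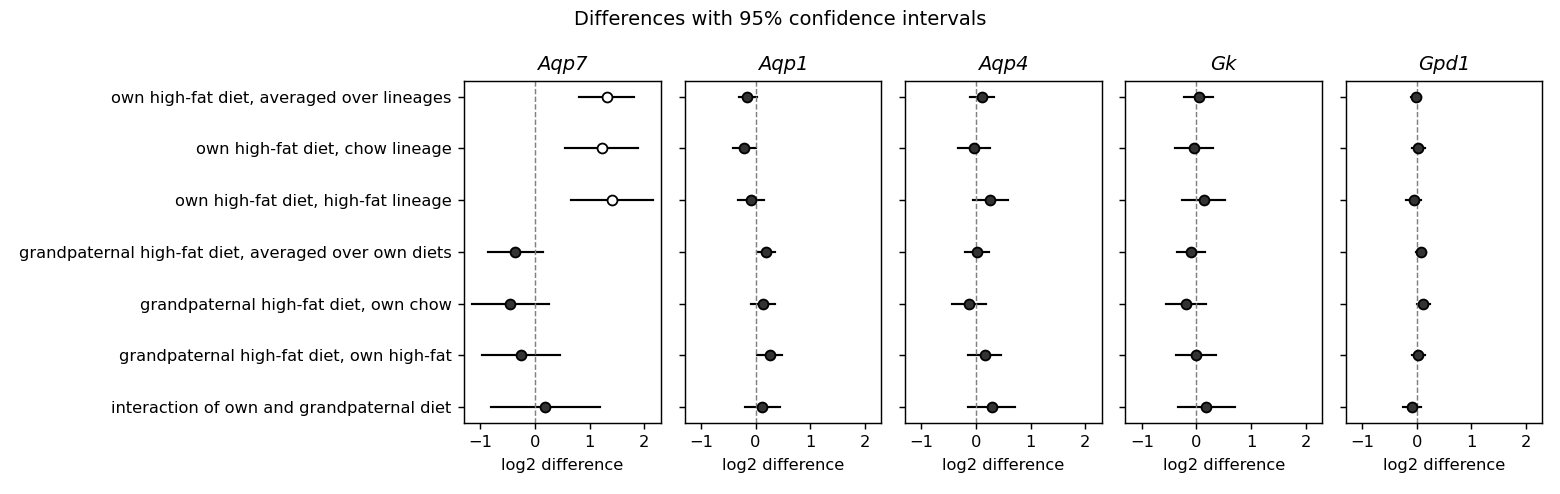
Log2 difference of each gene in 7 comparisons, high-fat minus chow, with 95% confidence intervals; open circles are the own-diet values of Aqp7, which chose the gene and carry no test, and the dashed line marks 0. The open circles lie at 1.31, 1.22 and 1.41, and every other point lies between -0.45 and 0.29.

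Apart from the own-diet values of Aqp7, the 5 genes were tested 32 times over the 7 comparisons, and 0 passed an adjusted p of 0.05 in limma, with 2 at an unadjusted p under 0.05, both of Aqp1. Over all genes, 0.0158% passed for the own diet averaged over lineages, 0% in either lineage alone, 0.198% for the grandfather's diet averaged over own diets, 0.00791% at own chow, 0% at own high-fat diet and 0% for the interaction. The comparisons share animals, so that their values for a gene are not independent of each other. The 2 genes that passed for the own diet were Decr1 (0.59, adjusted p = 0.0328) and Nudt7 (0.63, adjusted p = 0.0328), enzymes of fatty acid oxidation and of coenzyme A breakdown. These counts over all genes are not stable: with each array left out, 0 genes passed for the own diet in 13 of 18 fits, and the 25 of the averaged grandfather's diet ran from 0 to 303.

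Within groups, Aqp7 was higher in the animals whose muscle had more slow-fibre transcripts. The relation was examined after the levels had been seen. Deviations of Aqp7 from its group means followed those of the slow-fibre list with a Pearson r of 0.823 over 18 arrays, a Spearman rho of 0.822, and an r of 0.742 without the 2 arrays farthest from the median slow-fibre level. The r was positive in 4 of 4 groups, from 0.692 to 0.981. The lowest high-fat/high-fat animal for Aqp7, at 6.53, had the lowest slow-fibre level of its group, 8.52, and the highest chow/high-fat animal, at 8.85, had the highest, 10.66.

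In a limma model with the 4 groups and the slow-fibre level, Aqp7 rose by 0.75 log2 per log2 unit of that level (SE 0.12, adjusted p = 0.0139 over 12633 genes, rank 8 by p). In that model 0.325% of all genes passed with a positive slope and 0.158% with a negative one. The slope of Aqp7 lost its call with the code number of the titles as a block (0.63, adjusted p = 0.0786), without the chow/high-fat animal at 8.85 (0.67, adjusted p = 0.0504) and without the high-fat/high-fat animal at 6.53 (0.69, adjusted p = 0.0915). In the same model the own-diet difference of Aqp7 was 1.23 with an SE of 0.14, against 0.24 without the slow-fibre level. That own-diet fit reuses the values that chose Aqp7, with a covariate chosen after seeing the data, and is a description. The averaged grandpaternal difference of Aqp7 in this model was 0.014 (SE 0.15, adjusted p = 0.979).

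**Figure D4:**
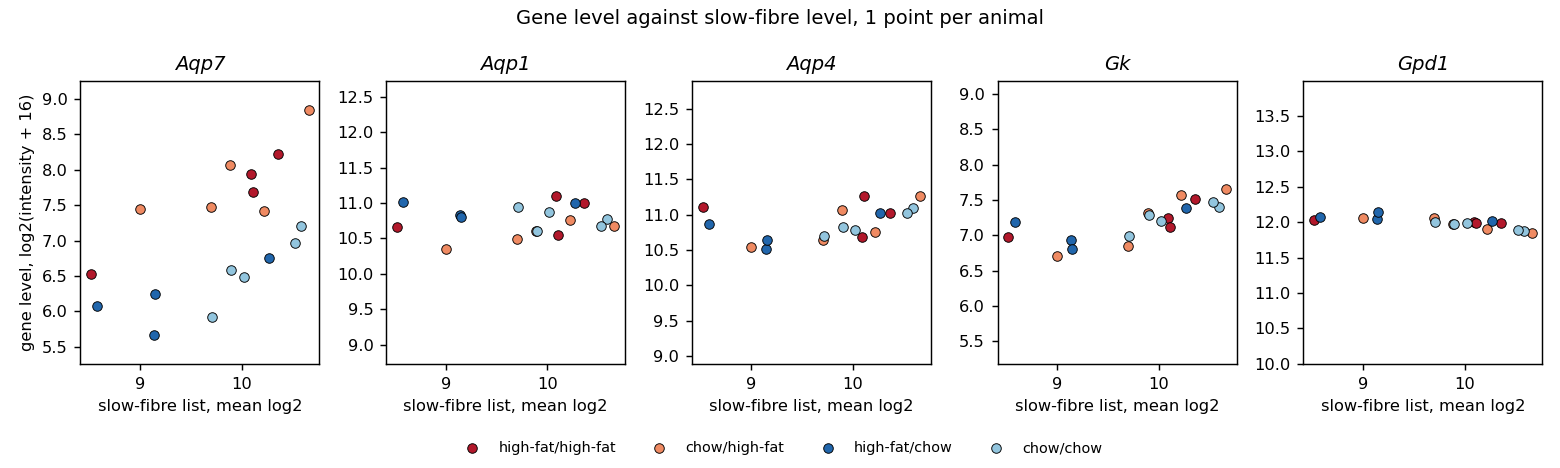
Normalized log2 level of each gene against the mean log2 level of the slow-fibre list, 1 point per animal, coloured by group. The own high-fat points of Aqp7 lie above the own chow points at like slow-fibre levels, a separation by the values that chose the gene. The points of Aqp7 climb within every group, those of Gk climb with little separation between groups, and those of Gpd1 decline slightly.

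The slope of Gk on the slow-fibre level was 0.35 (SE 0.078, adjusted p = 0.0539), with an r within groups of 0.745. It passed under 3 other settings: after centring on array medians (adjusted p = 0.0486), with robust, trended variances (0.0497) and with the array median in the model (0.031). Gpd1 had a slope of -0.07 (SE 0.033, adjusted p = 0.456) and an r of -0.706, Aqp4 a slope of 0.17 (SE 0.083, adjusted p = 0.493) and Aqp1 a slope of 0.11 (SE 0.064, adjusted p = 0.602). Red-cell markers moved along as well: their level had an r within groups of 0.699 with Aqp7, 0.698 with Gk and -0.591 with Gpd1. The part of blood in these relations was not tested.

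On the quantile-normalized values, the 2 enzymes ran opposite to each other. After centring within groups, Gk and Gpd1 had an r of -0.874 over 18 arrays, Aqp7 and Gk 0.689, Aqp4 and Gpd1 -0.646, Aqp4 and Gk 0.63, and Aqp7 and Aqp4 0.558. Aqp1 and Aqp4, the water channels, had -0.0481. These values share arrays and normalization and are a description. They were not computed on the table as deposited.

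The genes most like Aqp7 over the 18 arrays were Cpt2 (r = 0.929), the inner-membrane carnitine palmitoyltransferase of mitochondria, Hsdl2 (0.920), Eci2 (0.905), an isomerase of unsaturated acyl-CoA, Agpat2 (0.902), an acyltransferase of phosphatidic acid synthesis, and Etfdh (0.902), which passes electrons from fatty acid oxidation to ubiquinone. Their own-diet differences were 0.29 for Cpt2, 0.31 for Hsdl2, 0.38 for Eci2, 0.64 for Agpat2 and 0.27 for Etfdh. This r, not centred within groups, takes in the own-diet values that chose Aqp7. The own-diet differences of these genes are therefore a description and no separate result. With groups centred, the highest were Mpped2 (0.908), Ldhb (0.890), the heart-type subunit of lactate dehydrogenase, Fgf1 (0.889), a growth factor, Cpt2 (0.877) and Agpat2 (0.869). The own-diet differences of Mpped2, Ldhb and Fgf1 were 0.07, -0.03 and 0.06. Cpt2 and Agpat2 stood among the 5 highest by both measures. On the table as deposited Agpat2 ranked 1 uncentred and 5 within groups, while Cpt2 ranked 12 and 27.

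For the other genes the closest patterns within groups were Gstp1 (0.892), Ecsit (0.890) and Alkbh7 (0.881) for Aqp1, and Epdr1 (0.904), Lurap1l (0.883) and Pkia (0.877) for Aqp4. For Gk they were Dhrs11 (0.930), Mdh1 (0.906), the cytosolic malate dehydrogenase, and Alpl (0.898), alkaline phosphatase. For Gpd1 they were Pycard (0.900), Hopx (0.891) and Ampd1 (0.883), the AMP deaminase of muscle, of which Pycard and Hopx ranked 3852 and 1941 on the table as deposited. Over the 18 arrays uncentred, the highest were Tmem203 (0.883), Gstp1 (0.878) and Ecsit (0.855) for Aqp1, Pkia (0.886), Epdr1 (0.870) and Armcx3 (0.860) for Aqp4, Alpl (0.896), Ptpn3 (0.873) and Nnt (0.869) for Gk, and Pycard (0.887), Fancd2 (0.863) and Phkg1 (0.846) for Gpd1. The last 3 ranked 3360, 2672 and 918 for Gpd1 on the table as deposited.

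On the GRCr8 assembly of the rat genome the gene next to Aqp7 is Aqp3, another channel that passes glycerol, and the gene on its other side is Nfx1. Their own-diet differences were 0.09 (SE 0.063) for Aqp3 and 0.03 (SE 0.051) for Nfx1. Of the 12 aquaporins on the array, 5 were bright enough to test: Aqp1, Aqp3, Aqp4, Aqp7 and Aqp5, a water channel of glands, which differed by 0.02 (SE 0.076). The other 7, among them the glycerol channel Aqp9, were below the brightness limit. For the grandfather's diet Aqp3 stood at -0.15 (SE 0.063, adjusted p = 0.275) and Aqp5 at -0.16 (SE 0.076, adjusted p = 0.352).

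Lists of the pathways around these genes held 63 other genes, of which 50 were tested, and 0 of 50 passed in any of the 7 comparisons. Of 6 genes of glycerol release, 5 were higher on the own high-fat diet, with a median of 0.17 and 3 at an unadjusted p under 0.05. Over all genes the median was -0.0028, 48.3% were higher and 6.73% had an unadjusted p under 0.05. The smallest p were those of Lipe (0.40, SE 0.11, adjusted p = 0.343) and Pnpla2 (0.21, SE 0.06, adjusted p = 0.343), hormone-sensitive and adipose triglyceride lipase, and G0s2 (0.55, SE 0.22, adjusted p = 0.713), an inhibitor of Pnpla2. Another probe set of Lipe gave 0.12 (SE 0.079) for the own diet and 0.45 (SE 0.079) for the grandfather's diet, where the brighter one gave -0.14 (SE 0.11). These 2 probe sets disagree, and the value of Lipe is uncertain.

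Of 14 genes of glycerolipid assembly, 7 were higher on the own high-fat diet, with a median of 0.00029 and 3 at an unadjusted p under 0.05, beside 6.73% of all genes. Agpat2 differed by 0.64 (SE 0.18, adjusted p = 0.343), Dgat1, which adds the last acyl chain of triglycerides, by 0.17 (SE 0.05, adjusted p = 0.439) and Gpam, the mitochondrial acyltransferase of glycerol 3-phosphate, by 0.28 (SE 0.13, adjusted p = 0.741). With the slow-fibre level as a covariate Agpat2 passed, at 0.58 and adjusted p = 0.0457. Of 11 genes around glycerol 3-phosphate, 7 were higher, but between -0.07 and 0.06, and Gpd2, the mitochondrial partner of Gpd1, differed by 0.00 (SE 0.092). Its members of smallest p were Gk5 (-0.07, SE 0.062), a relative of Gk, Pgp (0.05, SE 0.057) and Akr1b1 (0.06, SE 0.074).

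**Figure D5:**
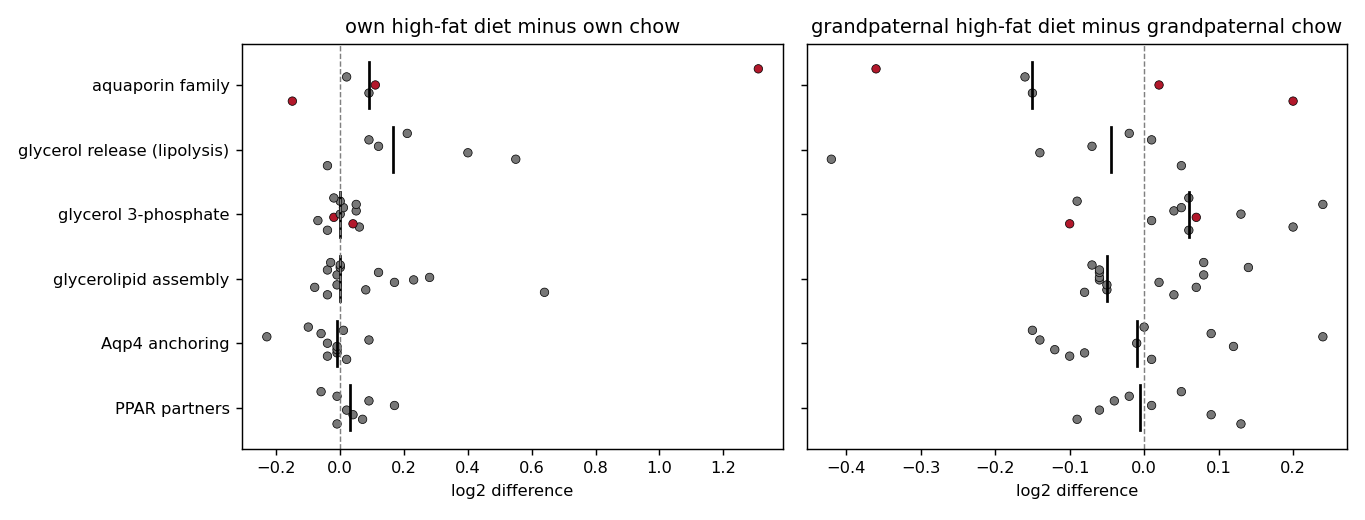
Log2 difference of every tested gene in 6 lists, averaged over the other diet, for the own diet (left) and the grandfather's diet (right); red points are Aqp7, Aqp1, Aqp4, Gk and Gpd1, grey points the other genes, black bars list medians and dashed lines 0. The horizontal scales differ between panels. On the left Aqp7, drawn at the value that chose the gene (1.31), lies apart from all others, the next being Agpat2 at 0.64 and G0s2 at 0.55.

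For the grandfather's diet 9 of the 11 genes around glycerol 3-phosphate were higher, with a median of 0.058 against -0.0027 over all genes, and 0 passed, with 2 at an unadjusted p under 0.05, beside 14.6% of all genes. Pgp, a phosphatase that acts on glycerol 3-phosphate, had the smallest p (0.24, SE 0.057, adjusted p = 0.0792), followed by Akr1b1, aldose reductase (0.20, SE 0.074, adjusted p = 0.214), and Gpd1. Pgp passed with array weights (0.25, adjusted p = 0.0313). Without high-fat/chow replicate 1, Pgp (0.26, adjusted p = 0.0263) and Akr1b1 (0.26, adjusted p = 0.0403) passed. Of the 6 lipolysis genes 2 were higher and of the 14 assembly genes 6 were higher, with medians of -0.044 and -0.051. The smallest p among them were those of G0s2 (-0.42, SE 0.22, adjusted p = 0.381) and Abhd5 (0.05, SE 0.04), which activates Pnpla2, and of Lpin1 (0.14, SE 0.071, adjusted p = 0.360) and Lpin3 (0.08, SE 0.039), phosphatidate phosphatases.

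The complex that anchors Aqp4 was measured by 11 genes, of which 3 were higher on the own high-fat diet and 5 in the grandpaternal high-fat lineage, with medians of -0.013 and -0.008. None passed. At an unadjusted p under 0.05 were 0 of the 11 for the own diet, beside 6.73% of all genes, and 4 for the grandfather's diet, beside 14.6%. For the grandfather's diet Sgcd (-0.14, SE 0.045, adjusted p = 0.150), a sarcoglycan, and Sspn, sarcospan (-0.15, SE 0.061, adjusted p = 0.261), had the smallest p, and for the own diet Sntb1 (-0.23, SE 0.11, adjusted p = 0.753), the syntrophin beta 1 of that complex. Sntb1 had an interaction of 1.02 (SE 0.22, adjusted p = 0.546), beside 0.29 for Aqp4. PPARs are receptors that fatty acids activate, and Pparg drives Aqp7 in mouse fat cells. Of 8 genes of PPARs, their binding partners and coactivators, 5 were higher on the own high-fat diet, with a median of 0.032. Of these 8 genes 0 passed, with 1 at an unadjusted p under 0.05, beside 6.73% of all genes. Ppargc1b (0.17, SE 0.074, adjusted p = 0.718), a coactivator, had the smallest p, and Pparg, the fat-cell receptor, differed by 0.04 (SE 0.072). The interaction of Ppard was 0.34 (SE 0.12, adjusted p = 0.649) and that of Ppargc1a 0.43 (SE 0.19, adjusted p = 0.695). The level of Aqp7 followed that of the slow-fibre list within groups. In the high-fat lineage 9 of 9 genes of that list were higher on the own high-fat diet (median 0.48), beside 49.6% of all genes. In the chow lineage 0 of 9 were higher (median -0.28), beside 48.6%. In either lineage 0 of the 9 had an unadjusted p under 0.05. The 9 genes share animals, so their directions are not independent, and the mean level of the list overlapped between own diets in either lineage. Averaged over lineages the median was 0.086, and the interaction had a median of 0.76 with 0 genes at an unadjusted p under 0.05. For the grandfather's diet its median was -0.15 at own high-fat diet, with 3 of 9 higher and 0 at an unadjusted p under 0.05, and -1.0 at own chow, with 0 of 9 higher and 6 at an unadjusted p under 0.05, beside 8.75% of all genes. For the averaged grandfather's diet the median was -0.47, with 4 of 9 at an unadjusted p under 0.05, beside 14.6%. None of the 9 genes passed in any of these comparisons.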

How the data were processed

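RNA of EDL muscle from 18 rats was hybridized to 1 array each. The deposited table holds a linear intensity for 20917 probe sets. The authors made it with Affymetrix Expression Console and PLIER, per the submitters' processing notes. Versions, settings and genome build are not given in the sources used here. Whether the values were centred or normalized between arrays stays unknown. Probe sets with 1 gene symbol numbered 18197, with several 960 and with none 1760.

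Values were taken as log2(intensity + 16) and quantile-normalized. The brightest probe set stood for each gene, and genes above the 25th percentile (5.28) were tested in R 4.3.3 with limma 3.58.1 (lmFit, eBayes, two-sided). All 4 groups shared 1 model of 7 comparisons, adjusted by Benjamini-Hochberg over 12642 genes. The fit and the slope were tested on simulated data with known changes.

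The 5 genes and all lists (glycerol release, glycerol 3-phosphate, glycerolipid assembly, aquaporins, Aqp4 anchoring, PPAR partners and markers of fat cells, endothelium, red blood cells, fast fibres, slow fibres and muscle identity) were chosen with earlier results of these data known. Named are the 5 genes, in each list genes that passed or up to 3 of smallest p in the averaged comparisons and the interaction, the 5 genes most like Aqp7 and the 3 most like each other gene by Pearson r, and genes that passed where 5 or fewer did. Nfx1, Aqp9, Gk5, Gpd2, Pparg and the fat-cell hormones were named after values were seen. Of the lists, 7 fast-fibre genes were all lower on the own high-fat diet (median -0.035, 0 passed), and 6 muscle identity genes had a median of -0.0062. Replicates are separate animals, numbered in record order. Alternatives were the table as deposited, median centring, offsets of 1 and 64, other filters, trended and robust variances, array weights, fits of the compared groups alone, the code number or neighbouring animal numbers as a block, the array median as a covariate, exact permutation, and each array left out. Leaving out the 2 arrays of lowest median, marker levels as covariates and the slope on the slow-fibre level were chosen after seeing the data. Over 32 pairs of arrays of the same group the SD of log2 differences was at least 0.187, and no pair was treated as copies.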

Additional observations from a re-analysis of the deposited data

Results flagged for a closer look

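Gpd1 in high-fat/high-fat replicate 4, at a log2 level of 12.03, stood apart from the other 3 animals of its group: its gap to the nearest, at 12.00, took up 0.877 of the range of the group. The SD of that group was only 0.016 log2. Chance gives about 1 such sample in 20 groups, and 20 groups of values were examined (5 genes in 4 groups).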

How the results depend on the processing

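The own-diet difference of Aqp7 stayed positive under each of 15 other settings, from 0.96 to 1.5, and with each array left out, from 1.19 to 1.49. These fits reuse the values that chose the gene and are a description. No other probe set of the 5 genes exists here, so that alternative was not run, and animals carry no replicate number common to the groups. The code number in the titles was fitted as a block instead, and pairing by neighbouring animal numbers as a random block (consensus correlation 0.126). Neither changed a call among the diet tests of the 5 genes, from which the own-diet values of Aqp7 were left out under every setting. Over all genes, the 2 that passed for the averaged own diet became 15 with the code number as a block, 14 with neighbouring numbers and 0 with an offset of 1 or the array median as a covariate. The 25 of the averaged grandfather's diet became 0 under each of these 4 settings and on the deposited table, 252 with array weights, and 303 without high-fat/chow replicate 1. In the diet tests of the 5 genes, the own-diet values of Aqp7 again left out, 0 passed under any setting except Aqp1 on the deposited table. That was for the grandfather's diet at own high-fat feeding, a count of 1, where 7 pathway genes passed too. On that table the median of all genes was shifted by 0.18 there, by -0.13 (chow lineage) and 0.11 (high-fat lineage) for the own diet and by 0.24 for the interaction, and the cause was not tested. Pathway genes that passed numbered 1 for the own diet in the chow lineage and 1 for the interaction on that table (Sntb1 each time), 1 for the own diet averaged over lineages with the slow-fibre level as a covariate (Agpat2) and 1 for the averaged grandfather's diet with array weights (Pgp). With arrays left out they numbered 0 to 2 for the averaged grandfather's diet (2 without high-fat/chow replicate 1) and 0 to 1 at own high-fat feeding (Sntb1, without high-fat/chow or high-fat/high-fat replicate 1). The slope of Aqp7 on the slow-fibre level ran from 0.67 to 0.83 with arrays left out and was 0.63 with the code number as a block. Exact permutation of animals gave unadjusted p = 0.0292 for Aqp1 (0.20) and 0.0336 for Gpd1 in the averaged grandpaternal comparison, and 0.0159 for Gpd1 at own chow. In limma 14.6% of all genes had an unadjusted p under 0.05 in the averaged comparison. The value at own chow belongs to groups that did not overlap, as for 3.28% of all genes in either direction.

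Signs that turned were all of differences that passed under neither setting. With the slow-fibre level as a covariate Aqp7 gave 0.014, 0.20 and, for the interaction, -0.36 (averaged grandfather's diet, at own chow, interaction), Gk gave 0.073, 0.11 and -0.073 in the same order, 0.036 for the grandfather's diet at own high-fat feeding, and for the own diet 0.038 (chow lineage) and -0.036 (high-fat lineage), and Aqp4 gave 0.013 for the own diet in the chow lineage and 0.019 for the grandfather's diet at own chow. With the endothelial level Aqp4 gave 0.031 for the own diet in the chow lineage and -0.069 for the averaged grandfather's diet. With the code number as a block, Aqp4 gave 0.014 and Gk 0.022 for the own diet in the chow lineage and Aqp7 -0.12 for the interaction. Without the 2 arrays of lowest median, Gk gave 0.041 and Gpd1 -0.0027 for the own diet in the chow lineage. On the deposited table Gpd1 gave for the own diet -0.092 (chow lineage) and 0.012 (high-fat lineage), -0.0052 for the grandfather's diet at own chow and 0.10 for the interaction, Aqp1 gave 0.05 for the own diet in the high-fat lineage, and Gk 0.20 for the grandfather's diet at own high-fat feeding. Median centring gave -0.02 and -0.071 for Gpd1 (averaged grandfather's diet, own high-fat feeding) and 0.032 for Gk (own high-fat feeding), and the array median as a covariate gave 0.036 for Aqp7 and 0.011 for Gk at own high-fat feeding.

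With each array left out, these differences crossed 0: Gk for the own diet averaged (-0.016 to 0.10) and in the chow lineage (-0.16 to 0.078), Aqp4 in the chow lineage (-0.13 to 0.049), Aqp1 in the high-fat lineage (-0.18 to 0.0073), Aqp4 for the averaged grandfather's diet (-0.026 to 0.074), Aqp7 (-0.47 to 0.094), Gk (-0.14 to 0.10) and Gpd1 (-0.00088 to 0.053) at own high-fat feeding, and the interaction of Aqp7 (-0.018 to 0.55). Brightness over background could not be judged, because no detection calls are among the values used here.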
